A study of Mus musculus with 47 samples.

Results

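The cytosolic ribosomal protein genes are the genes whose messages encode the protein parts of the cytoplasmic ribosome. They were picked by symbol from the deposited gene counts: Rpl or Rps followed by a number and at most a closing a, l or x, plus Rpsa, Rplp0, Rplp1 and Rplp2. This gave 80 of the 23416 genes counted, 49 of the large subunit and 31 of the small subunit, and the naming rule itself uses no measured value. The counts came from 10 RNA-seq libraries of mouse liver and spermatozoa, 2 libraries in each of 5 groups, made to ask whether loss of the Polycomb protein SCML2 in a father alters RNA in later generations. Ctrl-F1 males were sired by injecting testicular sperm of wild-type (Scml2+/y) males into oocytes (ICSI), and KO-F1 males were sired the same way from Scml2-KO (Scml2-/y) males. Scml2 is X-linked and sons take the X chromosome from their mother, so the F1 males were themselves wild type at Scml2. KO-F2 males were bred from single KO-F1 males housed with C57BL/6 females. All males were 8 to 12 weeks old, of strain BDF2 in F1 and BDF3 in F2 by the labels. No Ctrl-F2 group was analysed here. In any comparison of KO-F2 with F1 spermatozoa, the generation, the strain and the sequencing run named in the labels therefore cannot be told apart. Nor can the way of conception, ICSI for F1 and natural mating for F2, or the genotype of the father or grandfather. The labels number the replicates without saying whether a library is 1 male, so p-values measure the spread between these libraries.

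A ribosome is built from ribosomal RNA and a fixed set of small, basic proteins, most of them present in 1 copy in each ribosome, and the genes for these proteins are among the most steadily and highly transcribed in growing cells. Their mRNAs usually start within a run of pyrimidines (C and T), the TOP motif, through which their translation is tuned to nutrients. Spermatids and spermatozoa end transcription as the nucleus is compacted and shed most of their cytoplasm, so mature sperm hold few ribosomes and a small residue of RNA. Germ cells also use a few ribosomal protein paralogs, such as the autosomal Rpl10l while the X-linked Rpl10 is silenced in meiosis, and Rpl39l beside Rpl39.

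The bases at the transcription start are shown for the genes on which the results turn, because these genes are near 0, high or exchanged for a paralog between groups although most belong to 1 co-regulated family. Each line holds 30 bases of GRCm38.p6 from RefSeq, 15 on either side of the annotated start in the direction of transcription, with the longest unbroken run of C and T in capitals (the first such run where several are as long).
Rps18, chr17:33955651-33955680 (−): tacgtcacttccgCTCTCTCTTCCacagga
Rps7, chr12:28635939-28635968 (−): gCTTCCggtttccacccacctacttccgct
Rpl37a, chr1:72711245-72711274 (+): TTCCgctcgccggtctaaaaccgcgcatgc
Rpl41, chr10:128549154-128549183 (−): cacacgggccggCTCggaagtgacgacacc
Rpl10, chrX:74270801-74270830 (+): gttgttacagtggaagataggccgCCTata
Rpl10l, chr12:66284387-66284416 (−): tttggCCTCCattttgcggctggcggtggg
Rpl39l, chr16:10170213-10170242 (+): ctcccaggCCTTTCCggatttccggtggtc
Of these, only Rps18 held a run of at least 8 pyrimidines. Among the 60 members in the promoter table, 26 (43.3%) held such a run in this window, against 3760 of 27025 genes (13.9%) in the whole table. The search read the transcribed strand's sense letters only, and a run in this window is a description of letters, not a mapped start.

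Liver libraries held 11339729 to 14278900 counts, F1 sperm libraries 1503733 to 2778171 and KO-F2 sperm libraries 8384266 and 11462105. The detection floor, 3 counts of a library's total, was 0.210 to 0.265 CPM (counts relative to a library's own sum) in liver, 1.08 to 2.00 CPM in F1 spermatozoa, and 0.262 and 0.358 CPM for the KO-F2 libraries. Liver carried its hepatocyte list at 18.2% to 21.2% of counts and spermatozoa at 0.0307% or less. The list of 55 late spermatogenesis genes took 15.5% and 13.6% of counts in Ctrl-F1 spermatozoa, 6.76% and 5.23% in KO-F1, then 17.9% and 17.8% in KO-F2, and the precursor ribosomal RNA gene Rn45s took 3.52% to 28.7% of sperm counts. Scml2 itself had 0 to 18 counts in spermatozoa and 0 in liver, which checks nothing here because all the males were wild type at it. Sperm libraries were amplified from little RNA, so intervals and floors cover counting error only. In such bulk samples fewer cells of a type and less RNA per cell cannot be told apart.

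Together the 80 genes took 1.16% and 1.26% of counts in Ctrl-F1 liver and 1.38% and 1.41% in KO-F1 liver. In spermatozoa they took 0.620% and 0.604% in Ctrl-F1, 1.81% and 0.967% in KO-F1, then 0.843% and 0.841% in KO-F2. Control spermatozoa were the lowest of the 10 libraries, the first KO-F1 sperm library was the highest, and the sperm groups did not overlap. The 95% Wilson interval of that highest share ran from 1.80% to 1.83%, so the gap to its partner library was far wider than counting error. The mean share was 2.27 times as high in KO-F1 as in Ctrl-F1 spermatozoa, 1.38 times as high in KO-F2 as in Ctrl-F1, and 1.15 times as high in KO-F1 as in Ctrl-F1 liver, each with exact two-sided permutation p = 0.333, the smallest that 2 against 2 libraries can give. The factor for KO-F1 spermatozoa was 1.58 without the first KO-F1 library. With Rn45s and Lars2, another gene that gathers ribosomal RNA reads, left out of the totals, KO-F2 was 1.10 times Ctrl-F1 and the groups overlapped (exact permutation p = 0.667).

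A pair of large-subunit genes made up much of the sperm signal. Rpl41, which encodes a peptide of the large subunit that is the shortest of all ribosomal proteins, took 1.21% and 1.26% of member counts in Ctrl-F1 liver and 1.13% and 1.10% in KO-F1 liver. In spermatozoa it took 45.8% and 48.7% in Ctrl-F1, 37.1% and 33.9% in KO-F1, then 20.9% and 23.0% in KO-F2. Rplp1, an acidic protein of the stalk that recruits elongation factors, took 5.92% and 7.77% of member counts in Ctrl-F1 spermatozoa, 7.66% and 8.36% in KO-F1, then 27.7% and 31.8% in KO-F2. On this share of member counts Rpl41 was highest in Ctrl-F1 and Rplp1 in KO-F2. Neither pair of libraries overlapped with the other sperm groups. By level, Rpl41 was instead highest in KO-F1, at 6725 and 3283 CPM against 2842 and 2939 CPM in Ctrl-F1. KO-F2 had 1760 and 1937 CPM. Without both genes the members took 0.299% and 0.263% of counts in Ctrl-F1 spermatozoa, 1.00% and 0.558% in KO-F1, then 0.433% and 0.380% in KO-F2. Large-subunit genes held 57.7% to 58.9% of member counts in liver and 73.4% to 80.5% in spermatozoa.

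**Figure D1:**
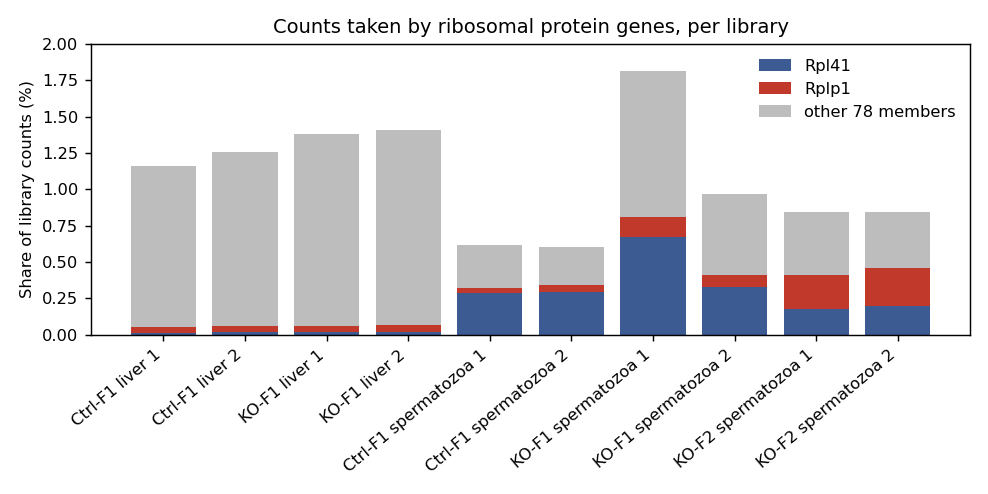
Share of each library's counts (%) taken by the 80 ribosomal protein genes, with 1 bar per library split into Rpl41, Rplp1 and the other members. Liver bars are nearly all other members, Rpl41 fills much of the bar in F1 spermatozoa, and Rplp1 is widest in KO-F2 spermatozoa (27.7% and 31.8% of member counts).

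Levels between genes were set side by side as CPM per kilobase of transcript (CPM per kb, the group mean ± SD of 2 libraries). In Ctrl-F1 liver the members lay close together, with a median level of 198 CPM per kb, quartiles of 109 and 273, and a highest level only 4.38 times the median. The highest were Rplp1 at 866 ± 26.5, Rps15 at 462 ± 32.7, Rps29 at 458 ± 18.7, Rpl32 at 438 ± 34.3 and Rpl4 at 436 ± 5.67 CPM per kb, and all but Rplp1 were within their SDs of the next in order. In Ctrl-F1 spermatozoa the median was 20.6 CPM per kb and the highest level 313 times that. Rpl41 led at 6437 ± 152, then Rplp1 at 893 ± 154, Rpl32 at 354 ± 144, Rps15 at 347 ± 51.5 and Rplp0, the stalk base that binds Rplp1 and Rplp2, at 202 ± 42.3. Rpl32 and Rps15 did not differ beyond their spread. These 5 genes held 76.4% of the summed level in Ctrl-F1 spermatozoa, and the 5 highest held 16.4% in Ctrl-F1 liver.

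The order in KO-F1 spermatozoa began with the same 4 genes, Rpl41 at 11145 ± 5422, Rplp1 at 2345 ± 875, Rpl32 at 1246 ± 674 and Rps15 at 668 ± 73.2 CPM per kb. The 2 KO-F1 libraries lay far apart, with Rpl41 at 6725 and 3283 CPM. In KO-F2 spermatozoa Rplp1 at 5349 ± 516 CPM per kb stood above Rpl41 at 4117 ± 279, and Rpl32 at 938 ± 60.2 and Rpl36 at 460 ± 93.8 followed. Across the 80 genes, log2 levels (log2 of CPM per kb plus 1) gave r = 0.997 between the liver groups, 0.952 between Ctrl-F1 and KO-F1 spermatozoa and 0.834 between Ctrl-F1 and KO-F2 spermatozoa. Between Ctrl-F1 liver and Ctrl-F1 spermatozoa r was 0.375, and the pairs within a tissue share its library kit. These correlations describe genes, which are not replicates.

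**Figure D2:**
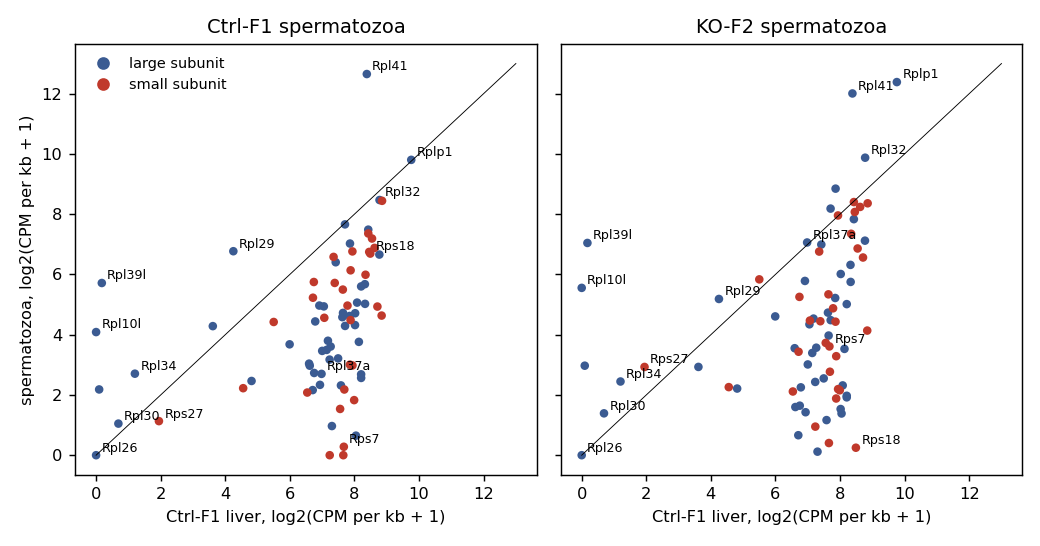
Mean level of each of the 80 genes in Ctrl-F1 liver (x axis) against Ctrl-F1 (left) or KO-F2 (right) spermatozoa (y axis), as log2 of CPM per kb plus 1, large subunit blue and small subunit red, with the line of equal levels. Rpl41, Rpl29, Rpl39l and Rpl10l lie above the line in both panels, Rps18 drops to near 0 in KO-F2, and Rpl37a and Rps7 are higher there than in Ctrl-F1 spermatozoa.

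Liver asked whether the father's genotype reached a somatic organ of the sons. No member passed the test in KO-F1 against Ctrl-F1 liver. The quasi-likelihood test of edgeR (fold of at least 2 and adjusted p under 0.01) called 0 of 75 members tested and 0% of all 11505 genes. DESeq2 called 0 members and 20 genes (0.129%), with 0.0452% higher and 0.084% lower in KO-F1. The fitted log2 fold change was nonetheless above 0 for 69 of the 75 members, against 49.4% of all genes, with a median of 0.33 for the members and −0.01 for all genes. Overlap between groups was counted on TMM-scaled CPM, the scaling of the test, here and in the comparisons after it. On that scale both KO-F1 libraries lay above both Ctrl-F1 libraries for 64 members (20.2% of all genes did so) and below for 1 (21.4%), Rps4x. On the plain CPM printed for single genes the counts were 56 above (15.7%) and 3 below (25.7%), Rpl4, Rpl5 and Rps4x. At an unadjusted p under 0.05 there were 35 members, all higher in KO-F1, where 3.99% of all genes were higher and 5.42% lower at that level. Rpl37a, a zinc-binding protein of the large subunit, showed the pattern, with 72.3 and 75.2 CPM in Ctrl-F1 and 99.7 and 100 CPM in KO-F1 liver (log2 fold change 0.50 ± 0.14 SE, edgeR adjusted p = 0.484). Rps23, which lines the decoding centre of the small subunit, had 79.1 and 87.0 CPM against 116 and 107 CPM (0.49 ± 0.14).

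The largest fitted differences in liver were less even between libraries. Rpl21 had 21.1 and 20.7 CPM in Ctrl-F1 and 57.3 and 29.5 CPM in KO-F1 liver (log2 fold change 1.11 ± 0.27, edgeR adjusted p = 0.424). The first KO-F1 library stood far above the rest, and without it the log2 fold change was 0.61, not called. Without the first Ctrl-F1 library Rpl21 passed the test at 1.18, a fit in which the lone control is assumed to vary as the KO-F1 pair did. Rpl29 had 10.5 and 19.8 CPM in Ctrl-F1 and 21.2 and 27.7 CPM in KO-F1 (0.77 ± 0.28), and Rps28 had a log2 fold change of 0.48 ± 0.16. At the other end stood Rpl34 (−0.61 ± 0.86) and Rps27 (−0.14 ± 0.71), with 2 to 18 counts per liver library, then Rpl5 (−0.09 ± 0.15), Rps4x (−0.08 ± 0.14) and Rpl4 (−0.05 ± 0.15). The 17 leukocyte markers tested all had positive log2 fold changes too (median 0.44, 0 called), as did 13 of 18 hepatocyte markers (median 0.21), and their part in the shift of the members was not tested.

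Spermatozoa of Ctrl-F1 males differed far more from Ctrl-F1 liver. Of 76 members tested, 56 were called between Ctrl-F1 spermatozoa and Ctrl-F1 liver (30.2% of 13204 genes), 52 lower in spermatozoa (11.6% of all genes) and 4 higher (18.6%). The median log2 fold change was −2.67 for the members and −0.02 for all genes. Both sperm libraries lay below both liver libraries for 67 members (41.8% of all genes) and above for 6 (38.3%). Small-subunit genes included 19 called lower and 0 higher, large-subunit genes 33 lower and 4 higher. The filter can keep a member on its liver counts alone, and such a member could hardly come out higher in spermatozoa. With at least 10 counts in every library, 38 of 52 members were called (36.5% of 5441 genes). Of those members 36 were lower (959 of all genes) and 2 higher (1028). Tissue, RNA selection and library kit differ together here and cannot be told apart.

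The 4 higher genes were Rpl41, Rpl29 and the germ-cell paralogs Rpl39l and Rpl10l. Rpl41 had 141 and 158 CPM in Ctrl-F1 liver and 2842 and 2939 CPM in Ctrl-F1 spermatozoa (log2 fold change 4.54 ± 0.35, edgeR adjusted p = 0.0012). Rpl29, of the large subunit, had 10.5 and 19.8 CPM in liver and 81.2 and 100 CPM in spermatozoa (2.87 ± 0.44, adjusted p = 0.0061). Rpl10l had 0 counts in all 4 liver libraries and 52 and 17 counts in Ctrl-F1 spermatozoa, at least 166-fold higher taking 3 counts over both Ctrl-F1 liver libraries as the floor. Rpl39l was counted 3 and 0 times in control liver and 145 and 35 times in control spermatozoa, a ratio of pooled CPM of 432 (exact 95% counting interval 145 to 2115).

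Among the members lower in spermatozoa, several could hardly be seen there. Rps10, a protein of the small-subunit head, was counted 1647 and 1698 times in control liver and 0 times in both Ctrl-F1 sperm libraries, at least 155-fold lower. Rps23 had 1130 and 1220 counts in liver and likewise 0 and 0 (at least 109-fold lower). Rps7, which besides its place in the small subunit can bind the p53 regulator MDM2, went from 2674 and 2844 counts to 1 and 0, a ratio of 766 (137 to 30274). Rpl9 went from 2606 and 2800 counts to 2 and 0, a ratio of 375 (104 to 3100). Rpl11, which with Rpl5 carries a small ribosomal RNA into the large subunit, had 2670 and 2703 counts in liver and 4 and 1 in Ctrl-F1 spermatozoa (log2 fold change −7.01 ± 0.42, edgeR adjusted p = 0.0012). In each of these genes both liver libraries lay far above both sperm libraries. The members not called included Rplp0, with 318 and 248 CPM in liver and 315 and 233 CPM in spermatozoa, and Rpl32, with 208 and 233 against 230 and 127 CPM.

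KO-F1 against Ctrl-F1 spermatozoa asked whether the father's genotype reached the RNA of the sons' sperm. By edgeR, 0 of 65 members tested were called, and so were 0% of all 10785 genes. DESeq2 called 4 members, all higher in KO-F1, with 2.32% of 16807 genes called and 0.744% called higher. On TMM-scaled CPM, 43 members had both KO-F1 libraries above both Ctrl-F1 libraries (28.3% of all genes) and 3 had them below (25.8%), Rpl39l, Rpl35 and Rpl36. On plain CPM 52 were above (38.1% of all genes), Rpl36 among them, and only Rpl39l was below (17.8%). The fitted log2 fold change was above 0 for 59 of 65 members (50.5% of all genes), with a median of 0.91 for the members and 0.02 for all genes. At an unadjusted p under 0.05 there were 15 members higher (8.88% of all genes) and 1 lower (10.6%).

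The 4 genes that DESeq2 called were Rpl14, Rpl22, Rpl4 and Rps9. Rpl14 had 80.8 and 75.8 CPM in Ctrl-F1 and 552 and 286 CPM in KO-F1 spermatozoa, with a log2 fold change of 1.95 ± 0.44 and adjusted p = 0.14 by edgeR and 1.99 and 0.000305 by DESeq2. Rpl22, an RNA-binding protein of the large subunit, had 23.5 and 28.6 against 159 and 108 CPM (1.89 ± 0.46, edgeR adjusted p = 0.14). Rpl4, which lines the peptide exit tunnel, had 159 and 126 against 771 and 425 CPM, and Rps9 had 119 and 110 against 616 and 308 CPM. In all 4 the first KO-F1 library was the higher and the groups were clear of each other. Rps27a, a fusion of ubiquitin to a small-subunit protein, had the largest fitted log2 fold change (2.01 ± 1.10) on 6 and 4 counts against 45 and 26. Rpl39 (1.82 ± 0.69) and the X-linked Rps4x (1.79 ± 0.51) followed.

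At the low end of the same comparison stood the paralogs and a few short genes. Rpl39l had 59.7 and 23.3 CPM in Ctrl-F1 and 19.4 and 13.9 CPM in KO-F1 spermatozoa (log2 fold change −1.73 ± 0.64, edgeR adjusted p = 0.20). Rpl35 was at −0.96 ± 1.09, Rpl10l at −0.90 ± 0.99, Rps29 at −0.28 ± 1.06 and Rpl36 at −0.24 ± 0.45. Of these 5, only Rpl39l had KO-F1 below Ctrl-F1 without overlap on both scales, and with libraries scaled to the late spermatogenesis list all 5 turned positive. That scaling moved the median of all genes to 1.72 and of the members to 2.60. The median of the members was 0.47 without the first KO-F1 library and 1.23 without the second. Beside this shift, 50 of 52 late spermatogenesis genes had negative log2 fold changes (median −1.71, 0 called by edgeR and 28 lower by DESeq2). The leukocyte list went from 0.731% and 0.354% of counts in Ctrl-F1 to 3.14% and 1.30% in KO-F1. Yet 15 of its 16 tested genes had negative log2 fold changes. Only 1 was positive, DESeq2 called 1 gene of the list higher, and Cd52 had the smallest p by edgeR. The epididymal list took 2.60% and 0.965% against 2.30% and 2.03%. The part of these other genes in the members' shift was not tested.

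**Figure D3:**
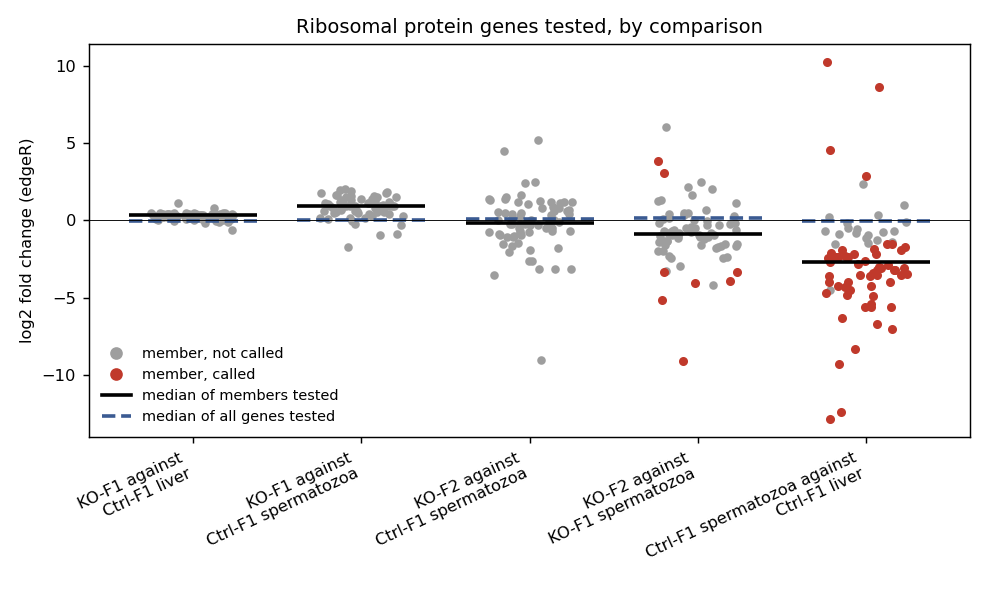
Log2 fold change by edgeR of every member tested in each of 5 comparisons, called genes in red and the rest in grey, with the median of the members (black line) and of all genes tested (dashed blue line). The members' median is 0.33 in liver, 0.91 in KO-F1 spermatozoa, −0.16 and −0.87 in the comparisons with KO-F2, and −2.67 for spermatozoa against liver. In the last of these the most extreme points are genes at or near 0 counts in 1 tissue, and those at 0 have no finite fold.

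A pair of members went from near 0 to clearly present between sperm groups, taken as at most 3 counts in both libraries of 1 group and at least 10 CPM in both of another. Rps18, a protein of the small-subunit head, lies at chr17:33951998-33955665 on the minus strand with 5 exons. It had 89 and 114 counts in Ctrl-F1 spermatozoa, 297 and 147 in KO-F1, then 1 and 1 in KO-F2, although the KO-F2 libraries were several times deeper. As levels these were 36.7 and 75.8 CPM, 107 and 70.5 CPM, and 0.0872 and 0.119 CPM. The KO-F2 libraries were below their own detection floors and every F1 library was far above. Pooled CPM were 512 times as high in Ctrl-F1 as in KO-F2 (203 against 2 counts, exact 95% interval 140 to 4261) and 906 times as high in KO-F1 (444 against 2 counts, 249 to 7504). In liver Rps18 had 2516 to 3055 counts. Of the 5112 genes with at least 10 CPM in both Ctrl-F1 sperm libraries, 3 (0.0587%) were near 0 in KO-F2, Rps18 being 1 of 45 members among them. The nearest genes on either side did not fall to near 0 with it. B3galt4 had 28, 0, 0 and 7 counts in F1 and 111 and 70 in KO-F2. Vps52 had 85, 15, 44 and 16 in F1 and 114 and 106 in KO-F2. These are raw counts, not scaled for the deeper KO-F2 libraries, and do not show a rise in level.

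Rps7 went the other way. It lies at chr12:28630847-28635953 on the minus strand with 7 exons, and had 1 and 0 counts in Ctrl-F1 spermatozoa, 1 and 0 in KO-F1, then 120 and 93 in KO-F2. The KO-F2 levels were 10.5 and 11.1 CPM, and the 4 F1 libraries were at or below 0.412 CPM, under their floors. Pooled CPM were 42.2 times as high in KO-F2 as in Ctrl-F1 spermatozoa (213 against 1 count, exact 95% interval 7.49 to 1674) and 52.2 times as high as in KO-F1 (9.27 to 2071). Here the background was larger: 71 of the 6463 genes with at least 10 CPM in both KO-F2 libraries (1.1%) were near 0 in Ctrl-F1 and 83 (1.28%) in KO-F1. Its neighbours were Colec11, with 0 counts in F1 and 5 and 0 in KO-F2, and Rnaseh1, with 7 to 28 counts in F1 and 53 and 34 in KO-F2. These too are raw counts, so the larger numbers in the deeper KO-F2 libraries do not show a rise in level. No other member met the rule between any sperm groups.

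**Figure D4:**
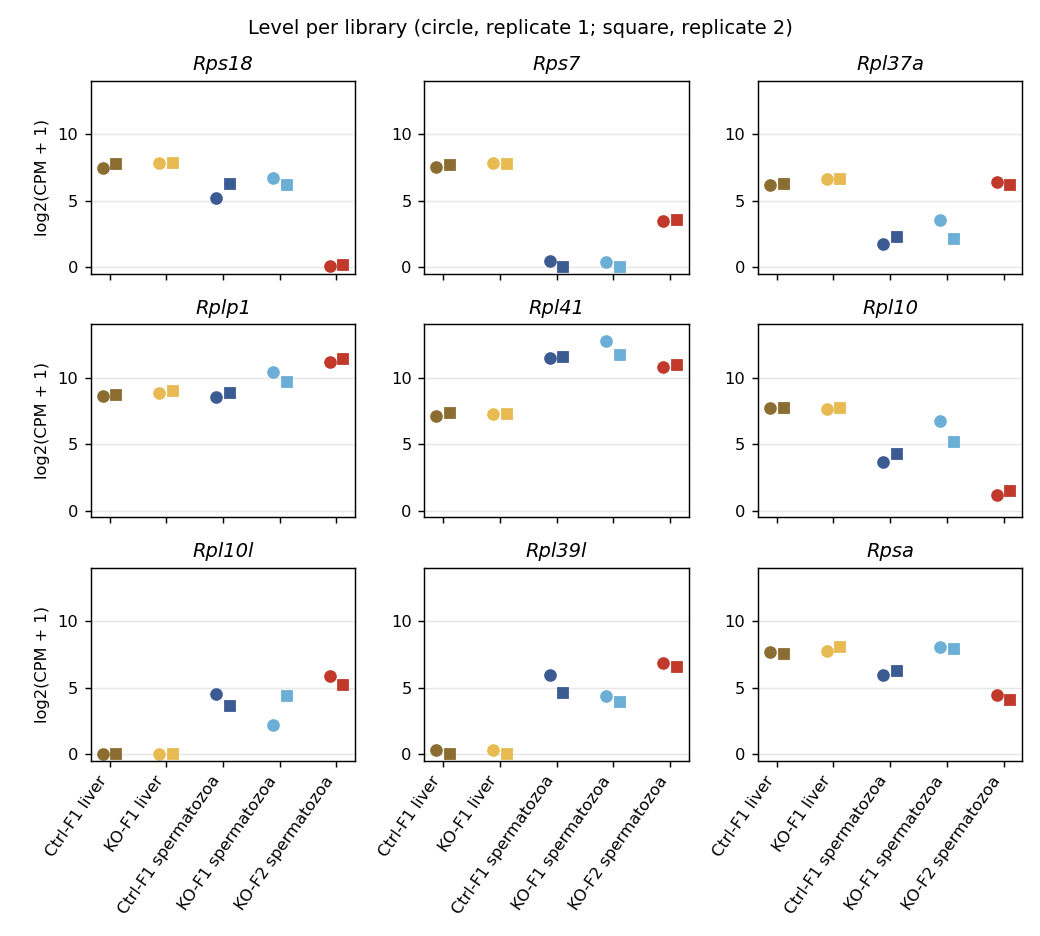
Level of 9 members in each library as log2 of CPM plus 1, circles for replicate 1 and squares for replicate 2, in the 5 groups. Rps18, Rpl10 and Rpsa are lowest in KO-F2 spermatozoa, Rps7, Rpl37a, Rplp1, Rpl10l and Rpl39l are higher there than in F1 spermatozoa, and Rpl41 is higher in all sperm groups than in liver.

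KO-F2 against KO-F1 spermatozoa set the generations against each other. Of 72 members tested, edgeR called 8, with 2.31% of all 13517 genes called: 2 higher in KO-F2 (2.11% of all genes) and 6 lower (0.2%). DESeq2 called 26 of the members, 7 higher (7.49% of its genes) and 19 lower (3.52%), with 11% of its genes called in either direction. The 6 lower included Rps18, Rpl10, Rps16, Rpl10a and Rpsa, and the 2 higher were Rpl37a and Rpl39l. Both KO-F2 libraries lay below both KO-F1 libraries for 39 members (28.7% of all genes) and above for 13 (37.2%), and on plain CPM below for 48 (37.8%) and above for 8 (29.5%). The median log2 fold change was −0.87 for the members and 0.13 for all genes.

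Each of the 8 had groups that were clear of each other, which their being called on these same libraries makes likely. Rps18 had a log2 fold change of −9.09 ± 0.59 (edgeR adjusted p = 0.0091). Rpl10, which joins the large subunit late in its assembly, had 107 and 35.5 CPM in KO-F1 and 1.22 and 1.79 CPM in KO-F2 (−5.12 ± 0.64, adjusted p = 0.0091). Rps16 had 46.4 and 27.8 against 1.40 and 1.91 CPM (−4.05 ± 0.55, adjusted p = 0.0095). In all of these the first KO-F1 library was the highest. Rpl10a, of the mobile stalk beside the exit site for transfer RNA, had 53.3 and 32.6 against 2.79 and 3.46 CPM (−3.35 ± 0.49), and Rpsa, also known as the laminin receptor, had 259 and 234 against 20.4 and 16.1 CPM (−3.32 ± 0.34, 10.0-fold lower). Rpl37a had 10.8 and 3.36 CPM in KO-F1 and 85.2 and 70.7 CPM in KO-F2 (3.87 ± 0.52, adjusted p = 0.0095). Rpl39l had 19.4 and 13.9 against 117 and 94.3 CPM (3.09 ± 0.36, 8.50-fold higher, adjusted p = 0.0091).

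The calls sat close to the threshold and depended on scaling. With library totals alone, without TMM scaling, 0 members passed, and with libraries scaled to the late spermatogenesis list 47 were called, all lower (30.2% of all genes were called), as that scaling moved the median of all genes to −1.84 and of the members to −2.84. Without the second KO-F1 library 28 members were called (19.2% of all genes), without the first 13 (10.3%), and without the second KO-F2 library 5 (2.64%). Of the 8, Rpl10 and Rpsa were called in 13 of 14 alternatives. Members among the 5 highest or lowest but not called were Rps7 (6.01 ± 1.11, adjusted p = 0.015), Rpl10l (2.47 ± 0.75), Rps12 (2.18 ± 0.73) and Rpl17 (−4.16 ± 1.10). Beside them, 53 of 55 late spermatogenesis genes had positive log2 fold changes (8 called higher by edgeR and 38 by DESeq2). Of the leukocyte markers edgeR called 10 higher and DESeq2 16, of the epididymal markers edgeR called 1 lower and DESeq2 16, and their part in the members' differences was not tested.

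KO-F2 against Ctrl-F1 spermatozoa uses the same control libraries as the KO-F1 comparison, so the results are given side by side and not combined. By edgeR 0 of 70 members and 0% of 13149 genes were called. DESeq2 called 8 members with 1.48% of its genes, 3 higher (0.798% of its genes) and 5 lower (0.685%). At an unadjusted p under 0.05 there were 15 members higher (9.07% of all genes) and 11 lower (5.83%). Both KO-F2 libraries lay above both Ctrl-F1 libraries for 29 members (28.9% of all genes) and below for 30 (19.2%), with 29 (33.8%) and 22 (15.4%) on plain CPM, and the median log2 fold change was −0.16 for the members and 0.07 for all genes. The members thus split between both directions. With the replicate number as a block edgeR called 9 members, 5 higher and 4 lower, and 2.75% of all genes.

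Rps18 (−9.04 ± 0.82) and Rpl37a (4.47 ± 0.49) had edgeR adjusted p = 0.0996 each, and were called by DESeq2. Rpl37a had 2.47 and 3.99 CPM in Ctrl-F1 spermatozoa, close to its level in the second KO-F1 library, against 85.2 and 70.7 CPM in KO-F2 and 72.3 and 75.2 CPM in Ctrl-F1 liver. Rplp1 had 367 and 469 CPM in Ctrl-F1, 1387 and 808 in KO-F1, then 2332 and 2674 in KO-F2 spermatozoa (KO-F2 against Ctrl-F1 2.40 ± 0.37, adjusted p = 0.14). The sperm groups stood in that order without overlap. The other members of the 5 highest were Rps7 (5.22 ± 1.17, adjusted p = 0.19), Rps28 (2.50 ± 0.99) and Rpl36 (1.66 ± 0.33). Rpl10 fell from 11.5 and 18.6 CPM in Ctrl-F1 to 1.22 and 1.79 CPM in KO-F2 by DESeq2 (edgeR −3.50 ± 0.78, adjusted p = 0.19). Rpl38 (−3.15 ± 0.83), Rps16 (−3.14 ± 0.75) and Rpl10a (−2.63 ± 0.67) were among the next lowest by edgeR. Of these, DESeq2 called Rplp1 and Rpl36 higher, and it also called Rpl29 and Rpsa lower. Beside them 23 of 24 leukocyte markers had positive log2 fold changes (median 2.48, 0 called by edgeR and 12 higher by DESeq2), DESeq2 called 8 epididymal markers lower, and their part in the members' differences was not tested.

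The paralogs were set beside their parent genes as shares of a pair's counted level. In all 4 liver libraries the germ-cell paralogs were near 0, so that Rpl10l made up 0% of the summed level per kb of Rpl10l and Rpl10, and Rpl39l at most 0.107% of Rpl39l and Rpl39. Rpl10l made up 59.1% and 32.1% in Ctrl-F1 spermatozoa, 2.54% and 29.6% in KO-F1, then 97.4% and 93.9% in KO-F2. The KO-F2 libraries were alike and the highest, and the F1 groups were each spread widely. Behind this, Rpl10l had 21.4 and 11.3 CPM in Ctrl-F1, 3.60 and 19.2 in KO-F1, then 58.8 and 35.3 in KO-F2, while Rpl10 was lowest in KO-F2. Rpl39l made up 67.9% and 65.4% in Ctrl-F1, 12.3% and 19.2% in KO-F1, then 69.3% and 65.0% in KO-F2, so KO-F1 lay below both other groups. Rpl39 itself had 15.2 and 6.65 CPM in Ctrl-F1, 74.9 and 31.7 in KO-F1, then 27.8 and 27.4 in KO-F2. Rpl3l, known as the striated muscle form of Rpl3, made up 0% to 40.8% of its pair in spermatozoa. Its level was 0 and 7.32 CPM for the Ctrl-F1 sperm libraries, 7.92 and 3.84 CPM for KO-F1, and 6.98 and 7.16 CPM for KO-F2. The KO-F2 levels thus lay within the range of the F1 libraries. The reads behind these levels were few: 0 and 11, 22 and 8, and 80 and 60, in the same order. Rps27l made up 86.0% to 100% of its pair with Rps27 in every library, liver included. Only uniquely aligned reads were counted, and each parent had more 75-base stretches found identically elsewhere in the genome than its paralog. These were 100% of stretches for Rps27 and 12.0% for Rps27l, and 94.6% for Rpl10 and 14.2% for Rpl10l. They were 89.0% for Rpl3 and 48.1% for Rpl39, and 0% for the paralogs of both. The part of copies in these shares was not tested.

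Some members were low in a whole tissue. Rpl26 had 0 counts in all 10 libraries, although its RefSeq gene lies at chr11:68901566-68904534 and the protein is a standard part of the large subunit. The annotation behind the counts is not given in the sources used here, so whether this 0 reflects the RNA or the counting was not tested. In liver, where the median member stood at 198 CPM per kb, Rpl30 had 3 to 7 counts, Rpl34 2 to 17 and Rps27 6 to 18. Others were low only in spermatozoa. In the 6 sperm libraries Rps10 had 0 to 3 counts, Rps23 0 to 5 and Rpl11 0 to 4, and Rpl9 0 to 13. Rpl11 was at 0 in both KO-F1 sperm libraries, 4 and 1 counts in Ctrl-F1 being at least 2.06-fold higher. In all, 54 members had at least 10 counts in both Ctrl-F1 sperm libraries, 60 in both KO-F1 and 68 in both KO-F2, and 48 had them in all 10 libraries. Library by library, 42.8% and 33.9% of all genes had at least 10 counts in Ctrl-F1 spermatozoa. The shares were 46.5% and 43.3% in KO-F1, then 62.2% and 60.3% in the deeper KO-F2 libraries. The rise is thus not particular to the members.

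Ribosomal protein genes have many processed copies in the mouse genome, and the deposited counts keep reads with 1 best place only. Of the 75-base windows of each member's RefSeq transcript, the share found identically elsewhere in GRCm38 was over 50% in 44 of 80 members, 0% in 4 (Rpl39l and Rpl3l among them) and 100% in 2 (Rpl28 and Rps27). It was 80.4% for Rps18, 58.2% for Rps7, 41.8% for Rpl37a, 42.6% for Rplp1, 63.7% for Rpl41 and 94.6% for Rpl10. Counts of such genes are therefore uncertain. The share went with the level in spermatozoa and not in liver: Spearman's rho across the 80 genes was 0.056 in Ctrl-F1 liver, −0.331 in Ctrl-F1, −0.313 in KO-F1 and −0.512 in KO-F2 spermatozoa, genes that share libraries and depth. In KO-F2 against Ctrl-F1 the median log2 fold change was −0.68 over 36 members with more than 50% of windows copied and 0.48 over the other 34. In KO-F2 against KO-F1 it was −1.33 over 38 members and −0.45 over 34, and 5 of the 6 called lower were in the first set. In KO-F1 against Ctrl-F1 spermatozoa the medians were 0.93 over 32 members and 0.90 over 33. What part copies had in any difference was not tested.

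**Figure D5:**
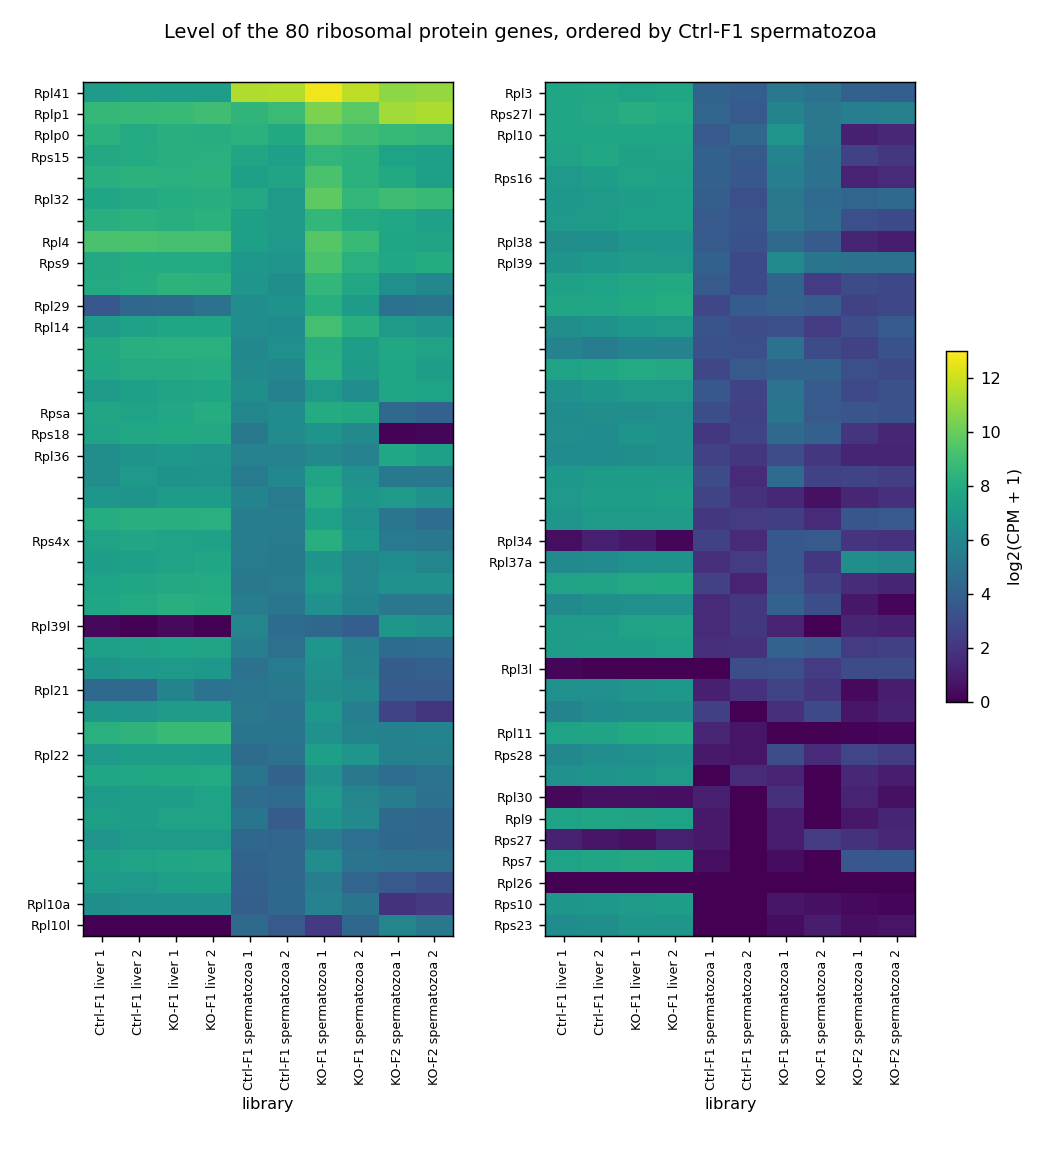
Level of each of the 80 genes, 1 line per gene with some labelled (ordered from top to bottom by the mean in Ctrl-F1 spermatozoa) in the 10 libraries (left to right), as log2 of CPM plus 1. In liver 73 genes had at least 10 counts in every library, whereas sperm levels run from Rpl41 down to genes at 0, and Rps18 is near 0 in the KO-F2 pair alone.

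The other genes of translation were read from lists. In KO-F1 against Ctrl-F1 spermatozoa, 0 genes of these lists were called by edgeR, and DESeq2 called 1 elongation factor and 1 mitochondrial gene higher. The 7 ribosomal protein genes outside the naming rule (Rpl36al, Gnb2l1 and Rpl7l1 had the smallest p) were all on the positive side, with a median log2 fold change of 0.84, and 60 of 72 mitochondrial ribosomal protein genes were positive with a median of 0.80. The medians were 0.47 for 28 ribosome assembly genes, 0.24 for 31 initiation factors and 0.22 for 10 elongation factors. A list of other TOP mRNAs had 3 of 6 tested genes positive and a median of 0.03. Among these lists, those that encode ribosomal proteins were nearest the members' 0.91. In liver the mitochondrial list had 62 of 76 positive (median 0.17), initiation factors 10 of 32 (−0.08) and assembly genes 18 of 31 (0.02). Against liver, Ctrl-F1 spermatozoa had 3 of 7 ribosomal protein genes outside the rule, 3 of 31 assembly genes, 5 of 32 initiation factors and 7 of 76 mitochondrial genes called lower, beside 52 of 76 members. Of all genes tested, 11.6% were called lower, so the assembly, initiation and mitochondrial lists were near the share of all genes.

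The test of the paternal difference in spermatozoa against that in liver, over 8 libraries, called 0 of 77 members and 0% of 14415 genes by edgeR, with 9 members higher (7.85% of all genes) and 4 lower (6.49%) at an unadjusted p under 0.05. DESeq2 called 1, Rpl22 (1.55, adjusted p = 0.0044), with 1.42% of its genes called. By edgeR Rpl22 was at 1.67 ± 0.42 with adjusted p = 0.19.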

How the data were processed

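RNA-seq of liver and of motile cauda epididymal spermatozoa was read from 10 count files. The authors aligned single-end 75-base reads to GRCm38 (mm10) with HISAT2 2.1.0 and deposited raw counts per gene symbol of uniquely aligned reads from featureCounts; the annotation and strand setting are not given in the sources used here, so antisense or overlapping genes cannot be separated. Liver libraries were made with TruSeq Stranded mRNA and sperm libraries from SMART-Seq v4 cDNA. Files were joined by symbol and the 4 lines of 2 repeated symbols dropped.

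Tests used edgeR 4.0.16 in R 4.3.3 (TMM, filterByExpr with minimum count 10 and minimum total 15, quasi-likelihood F test, Benjamini-Hochberg over all genes tested, libraries of the compared groups only), and genes were called at a fold of at least 2 with adjusted p under 0.01. SE is the log2 fold change divided by the root of F. DESeq2 1.42.0, other scalings, other filters, a replicate block and leaving out each library were alternatives. The fits were tested on simulated data. Members were tested only where they passed the filter. Shares of counts used exact permutation tests. Level per kilobase used the RefSeq transcript of lowest accession number, so a gene with a long 3′ end there (Rps15a, Rps20) reads low. Genes to name were those near 0 in 1 sperm group, called, or among the 5 highest or lowest by level or log2 fold change, with paralogs. Same-numbered replicates did not deviate together in every pair (correlations −0.163 to 0.160), so numbers were not taken to pair samples. The naming rule uses no values, but the choice of this gene family (the members), the gene lists and the tests was made with earlier results of these data known. Some members counted among the 80 are not reported here by name. Embryo and ChIP-seq samples of the series were not analysed here.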

Additional observations from a re-analysis of the deposited data

Results flagged for a closer look

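The difference between the generations, tested directly as KO-F2 against KO-F1 spermatozoa, passed the threshold for 8 members by edgeR (fold of at least 2, adjusted p under 0.01). Among them, log2 fold changes were −9.09 for Rps18, −5.12 for Rpl10, −4.05 for Rps16, −3.35 for Rpl10a and −3.32 for Rpsa. They were 3.87 for Rpl37a and 3.09 for Rpl39l. In each, both KO-F2 libraries lay on the same side of both KO-F1 libraries. The genes were chosen by their difference between these same libraries, so this is no separate support. Of all genes, 37.2% lay above and 28.7% below without overlap on TMM-scaled CPM. Against Ctrl-F1 spermatozoa the same genes had edgeR log2 fold changes of −9.04, −3.50, −3.14, −2.63, −2.07, 4.47 and 1.21, in that order. There edgeR called none of them, and 0% of all 13149 genes. DESeq2 called Rps18, Rpl10 and Rpsa lower and Rpl37a higher, with 1.48% of its genes called. It did not call Rps16, Rpl10a or Rpl39l. Strain, sequencing run and way of conception differ with the generation and cannot be told apart from it.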

How the results depend on the processing

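Over 52 results for single members, 674 alternative values were computed: 603 kept direction and side of the threshold, 42 newly passed it, 16 no longer passed it and 13 changed sign. Sign changes were, in liver with 1 library left out, Rpl34 (range −2.02 to 0.26, also 0.052) and Rps27 (−0.976 to 0.42, also 0.39); in KO-F1 spermatozoa with 1 left out, Rps29 (−1.61 to 0.43, also 0.069); without TMM, Rpl36 to 0.22 and Rps29 to 0.18; and with late spermatogenesis scaling, Rpl10l to 0.80, Rpl35 to 0.75, Rpl36 to 1.45, Rpl39l to 0.049 and Rps29 to 1.49. Members called moved with DESeq2 to 4 (KO-F1 against Ctrl-F1 spermatozoa), 8 (KO-F2 against Ctrl-F1), 26 (KO-F2 against KO-F1) and 1 (spermatozoa against liver effect). With no filter they were 1, 2 and 25 (0.672%, 0.209% and 13.6% of all genes), and with at least 10 counts in every library 2 in KO-F1 spermatozoa (3.2%) and 18 in KO-F2 against KO-F1 (20.4%). KO-F2 against KO-F1 also gave 0 without TMM, 25 at adjusted p under 0.05 (20.4%) and 47 with late spermatogenesis scaling. The block of replicate numbers gave 9 in KO-F2 against Ctrl-F1 spermatozoa and moved no other count of calls by over 1.5 times, and the crossed block in liver, chosen after seeing the data, gave 0.

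Median log2 fold changes without TMM were 0.26 (liver), 1.38 (KO-F1 spermatozoa), −0.017 (KO-F2 against Ctrl-F1), −1.32 (KO-F2 against KO-F1) and −2.90 (spermatozoa against liver). Late spermatogenesis scaling gave 2.60, −0.32 and, for KO-F2 against KO-F1, −2.84. For KO-F2 against Ctrl-F1 the median was also −0.12 with DESeq2, −0.19 with its size factors, −0.053 unfiltered, −0.13 with the block and 0.046 with at least 10 counts, so its sign was not stable, and without the first Ctrl-F1 sperm library it was 0.22. For spermatozoa against liver it was −2.49 with DESeq2 and −2.29 with at least 10 counts. Leaving out 1 library gave 0 to 1 called in liver, 0 to 0 in KO-F1 spermatozoa, 2 to 3 and 5 to 28 in the KO-F2 comparisons and 39 to 64 against liver. Except in KO-F1 spermatozoa, the number of all genes called also changed between these fits. Each fit leaves 1 library in a group, without a spread of its own, so no conclusion is drawn from these counts. With 1 library left out, the medians ran from 0.26 to 0.39, 0.47 to 1.23, −0.20 to 0.22, −1.13 to −0.42 and −3.03 to −2.58. The ratios of shares ran from 1.11 to 1.20, 1.58 to 2.96, 1.36 to 1.39, 0.465 to 0.871 and 0.486 to 0.526. The ratio of shares for KO-F2 over Ctrl-F1 was 1.10 without Rn45s and Lars2 and 1.45 without Rpl41 and Rplp1 (chosen after seeing the data), and for spermatozoa over liver 0.712 and 0.243. The cause of these changes was not tested. F1 sperm depth limits members under about 10 counts, for which a lower level is not detectable.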
